A study of Mus musculus with 10 samples.

Results

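Complement is a cascade of plasma and tissue proteins, and the genes followed here encode 7 of its components and 2 of its receptors. They are *C1qa*, *C1qb*, *C1qc*, *C2*, *C3*, *C4b*, *Cfb*, *C3ar1* and *C5ar1*. The choice was made by symbol, with earlier results of these data known. These are 9 of the 45706 genes in the count table of 10 bulk tumors. The tumors grew from cultured melanoma cells driven by mutant *Braf*, which originated in C57BL/6 mice and were injected under the skin of C57BL/6 hosts 8 weeks old. RNA was taken from whole tumors 4 days later. The first group was 4 tumors of cells with intact *Ptgs1* and *Ptgs2*, which encode the cyclooxygenases COX-1 and COX-2 (*Ptgs*+/+ tumors). The second was 3 tumors of cells in which CRISPR/Cas9 had disrupted both genes (*Ptgs*-/- tumors). The third was 3 *Ptgs*-/- tumors from hosts that were given, per the labels, anti-NK1.1 (200 µg) together with anti-asialo GM1 (30 µg) on days 0 and 2 (NK cell-depleted *Ptgs*-/- tumors). The hosts carried intact *Ptgs* genes in all 3 groups, and whether the *Ptgs*-/- cells were 1 clone is not given in the sources used here.

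The classical pathway of complement starts when C1q, a protein built of A, B and C chains, binds antibody or other ligands on a surface. Associated proteases then cleave C4 and C2, which form an enzyme that cleaves C3, and factor B takes the corresponding place in the alternative pathway. Small fragments of C3 and C5 act on leukocytes through their receptors C3aR1 and C5aR1. The liver makes most plasma C3 and C4, whereas macrophages are a main source of C1q, and macrophages, fibroblasts and other tissue cells also make components locally.

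The libraries held 8150556 to 12839174 counts of reads from transcript 3′ ends. Levels are given as CPM, the count of a gene scaled to a common library total, and since a 3′ library yields about 1 tag per transcript, CPM was not divided by transcript length. A gene passed the test when its adjusted p was at or under 0.05, by the quasi-likelihood test of edgeR and Benjamini-Hochberg adjustment over the 14550 genes with enough counts. The titles of *Ptgs*+/+ replicate 4 and *Ptgs*-/- replicate 3 carry a code different from that of the other 8 libraries, and its meaning is not stated. Both targeted genes were lower in every *Ptgs*-/- library than in any *Ptgs*+/+ library, *Ptgs2* at 26.99 to 74.8 against 94.4 to 347 CPM and *Ptgs1* at 77.0 to 105 against 128 to 170 CPM. Counts of *Ncr1*, an NK cell receptor, were 20, 48 and 77 for *Ptgs*-/- tumors but 0 for all 3 tumors whose hosts had been depleted. The pigment cell genes *Mlana*, *Tyr* and *Tyrp1* were at or under 0.199 CPM in all libraries although the tissue is labelled melanoma, while *Mitf* was at 17.4 to 33.1 CPM. The 10 skeletal muscle genes of a marker list summed to 2455 to 5838 CPM after NK cell depletion and to 23.1 to 401 CPM in the other libraries. Leaving these genes out of the counts, an alternative chosen after seeing the data, changed no call among the complement genes listed above.

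Genes of C1q, *C4b* and the C3a receptor were more highly expressed in *Ptgs*-/- than in *Ptgs*+/+ tumors. Of the 9 genes, 8 had enough counts to test, 5 of these were higher (*C1qa*, *C1qb*, *C1qc*, *C4b* and *C3ar1*), 0 were lower, also at an unadjusted p under 0.05 and with DESeq2, and 3 did not pass (*C2*, *C3* and *C5ar1*). Over all genes tested, 12.1% were higher and 11% lower in this comparison. The median log2 fold change of the 8 genes was 0.86, from -0.02 for *C5ar1* to 1.28 for *C3ar1*, against -0.01 over all genes tested. None of the 8 reached the study's additional threshold, an absolute log2 fold change of 1.5, which 4.15% of all genes passed together with the test.

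In NK cell-depleted *Ptgs*-/- tumors the mean level lay between those of the other 2 groups for 7 of the 8 genes, the exception being *C5ar1*. The share of all genes with such an order was not computed, so this count is a description only. Against *Ptgs*+/+ tumors, *C1qc* and *C3ar1* were higher in NK cell-depleted *Ptgs*-/- tumors, 6 of the 8 genes did not pass and 0 were lower, where 6.63% of all genes were higher, 5.87% were lower and 2.71% passed both thresholds. Between *Ptgs*-/- tumors with and without NK cells, *C3ar1* alone passed, being higher with NK cells, and 7 did not, where 0.515% of all genes were higher, 0.921% lower and 1.15% past both thresholds. The median log2 fold changes of the 8 genes were 0.52 and 0.38 in these comparisons, against -0.01 over all genes tested in each. The 3 comparisons share their tumors, so that they are not independent of each other.

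The promoters of the genes are shown first, as far as RefSeq's table on GRCm38.p6 holds them, which is for 5 of the 9 genes. Each window spans 250 bases before to 50 after the transcript start, 5′ to 3′ on the strand of the gene, and all 5 lie on the minus strand. *C1qb*, *C1qc* and *C3ar1* are shown as genes that passed the test in *Ptgs*-/- tumors, and *C3* and *C5ar1* as genes that did not pass the test. Capitals mark matches to any of 4 motifs searched on both strands: the interferon-stimulated response element core GAAANNGAA, the gamma-activated site TTCNNNGAA, the NF-kappaB core GGGANTTTC and the C/EBP core TTGCNNAA.
C1qb (chr4:136886151-136886450): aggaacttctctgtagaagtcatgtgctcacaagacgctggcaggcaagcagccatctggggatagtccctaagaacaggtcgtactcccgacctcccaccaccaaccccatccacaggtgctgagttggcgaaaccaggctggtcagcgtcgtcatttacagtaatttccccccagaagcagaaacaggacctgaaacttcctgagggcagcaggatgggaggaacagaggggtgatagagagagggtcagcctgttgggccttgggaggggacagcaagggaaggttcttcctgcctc
C1qc (chr4:136892865-136893164): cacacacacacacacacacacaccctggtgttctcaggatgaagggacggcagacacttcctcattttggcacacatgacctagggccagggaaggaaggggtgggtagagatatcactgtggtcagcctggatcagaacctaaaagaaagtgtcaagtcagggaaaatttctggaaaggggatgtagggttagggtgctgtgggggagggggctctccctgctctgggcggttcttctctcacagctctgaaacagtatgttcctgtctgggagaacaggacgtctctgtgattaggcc
C3ar1 (chr6:122856108-122856407): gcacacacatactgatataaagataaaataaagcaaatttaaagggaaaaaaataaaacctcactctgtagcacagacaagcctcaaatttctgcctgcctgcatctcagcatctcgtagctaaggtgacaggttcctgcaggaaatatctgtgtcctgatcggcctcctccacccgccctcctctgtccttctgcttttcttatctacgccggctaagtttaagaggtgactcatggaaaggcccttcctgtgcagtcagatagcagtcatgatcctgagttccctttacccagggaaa
C3 (chr17:57228087-57228386): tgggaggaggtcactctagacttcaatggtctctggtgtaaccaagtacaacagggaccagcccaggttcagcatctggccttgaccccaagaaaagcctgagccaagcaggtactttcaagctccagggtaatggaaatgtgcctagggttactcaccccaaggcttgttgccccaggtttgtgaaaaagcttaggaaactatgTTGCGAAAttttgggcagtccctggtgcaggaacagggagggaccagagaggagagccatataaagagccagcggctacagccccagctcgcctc
C5ar1 (chr7:16259289-16259588): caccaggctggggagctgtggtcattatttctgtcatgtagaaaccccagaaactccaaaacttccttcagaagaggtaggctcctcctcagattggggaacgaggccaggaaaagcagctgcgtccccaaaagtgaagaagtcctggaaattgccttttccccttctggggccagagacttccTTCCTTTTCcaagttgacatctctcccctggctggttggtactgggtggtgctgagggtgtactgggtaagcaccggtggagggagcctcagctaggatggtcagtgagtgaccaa
The windows of *C1qb*, *C1qc* and *C3ar1* held no match. The window of *C3* held 1, to the C/EBP core, starting 45 bases before the transcript start. That of *C5ar1* held 1, to the interferon-stimulated response element core read on the opposite strand, starting 66 bases before its transcript start. For *C1qc*, *C5ar1* and, by a few bases, *C3ar1* the RefSeq start lies inside the gene range given below, which comes from GENCODE. For *C1qb* it lies a few bases outside its range. The match of *C5ar1* lies inside the range of that gene too. Of 32851 promoter windows in the table, 8.56% held the interferon-stimulated response element core, 8.3% the gamma-activated site, 1.11% the NF-kappaB core and 10.8% the C/EBP core. A match is a run of letters, not a bound site, and its absence says only that these letters are not in the window.

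The 3 chains of C1q are encoded side by side on chromosome 4 of GRCm38, *C1qa* (ENSMUSG00000036887) from 136895917 to 136898803, *C1qb* (ENSMUSG00000036905) from 136880129 to 136886187 and *C1qc* (ENSMUSG00000036896) from 136889804 to 136893065, all on the minus strand. *C1qa*, which encodes the A chain, was at 728, 687, 879 and 763 CPM in *Ptgs*+/+ tumors, at 1152, 1780 and 1359 CPM in *Ptgs*-/- tumors and at 1003, 1113 and 1098 CPM in NK cell-depleted *Ptgs*-/- tumors. Every *Ptgs*-/- tumor exceeded every tumor of the other 2 groups, replicate 2 by most, and the NK cell-depleted tumors all exceeded the *Ptgs*+/+ tumors. Its level in *Ptgs*-/- tumors was 1.80-fold that in *Ptgs*+/+ tumors, or 0.85 in log2 units (standard error 0.14, adjusted p = 0.00176, edgeR's quasi-likelihood test). The log2 difference between NK cell-depleted and *Ptgs*+/+ tumors was 0.46 (standard error 0.14, adjusted p = 0.0583, same edgeR test). That between *Ptgs*-/- tumors with and without NK cells was 0.39 (standard error 0.15, adjusted p = 0.357, same edgeR test), with a 95% confidence interval of 0.06 to 0.73, but it rested in part on *Ptgs*-/- replicate 2, without which it was 0.21 (adjusted p = 0.774, same edgeR test).

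*C1qb*, encoding the B chain, showed a similar pattern at a lower level. It was at 219.8, 190.4, 274 and 203 CPM in *Ptgs*+/+ tumors, at 351, 601 and 436 CPM in *Ptgs*-/- tumors and at 318, 360.2 and 310.3 CPM in NK cell-depleted tumors. Both *Ptgs*-/- groups lay above all *Ptgs*+/+ tumors, and they overlapped each other, since *Ptgs*-/- replicate 1 was below NK cell-depleted replicate 2. The log2 fold change was 1.0 against *Ptgs*+/+ tumors (standard error 0.18, adjusted p = 0.00226, edgeR's quasi-likelihood test), or 2.0-fold. After NK cell depletion it was 0.54 against *Ptgs*+/+ tumors (standard error 0.18, adjusted p = 0.0684, same edgeR test). With against without NK cells it was 0.46 (standard error 0.19, adjusted p = 0.381, same edgeR test), and 0.24 without *Ptgs*-/- replicate 2.

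*C1qc*, encoding the C chain, also passed the test after NK cell depletion. In that comparison *C1qa* passed in 8 and *C1qb* in 7 of 20 alternative analyses, and a difference between the chains was not tested. Its level was 228, 198, 212 and 247 CPM in *Ptgs*+/+ tumors, 383, 619 and 428 CPM in *Ptgs*-/- tumors and 354, 372 and 351 CPM in NK cell-depleted tumors. The 3 groups did not overlap. *Ptgs*-/- tumors exceeded *Ptgs*+/+ tumors 2.07-fold, or 1.05 in log2 units (standard error 0.15, adjusted p = 0.000673, edgeR's quasi-likelihood test). NK cell-depleted tumors exceeded them 1.59-fold, or 0.67 in log2 units (standard error 0.15, adjusted p = 0.013, same edgeR test), but without NK cell-depleted replicate 2 the adjusted p was 0.0527. With against without NK cells the log2 fold change was 0.38 (standard error 0.16, adjusted p = 0.394, same edgeR test), and 0.16 without *Ptgs*-/- replicate 2.

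The 3 chains kept similar proportions from tumor to tumor. Of their summed CPM, the share of *C1qa* was 63.3% ± 1.11 in *Ptgs*+/+, 60.5% ± 1.03 in *Ptgs*-/- and 60.9% ± 1.35 in NK cell-depleted tumors (mean ± SD over 4, 3 and 3 tumors). This share was slightly lower in *Ptgs*-/- than in *Ptgs*+/+ tumors without overlap, at 59.33% to 61.15% against 61.90% to 64.40%. *C1qb* took 16.7% to 20.1% and *C1qc* 15.5% to 21.2% over the 10 tumors. The summed level itself was 1208 ± 120.4, 2370 ± 571 and 1760 ± 85.0 CPM for these groups (mean ± SD).

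C1q transcripts moved with those of macrophage genes. A list of 12 macrophage genes summed to 2436 to 3111 CPM in *Ptgs*+/+ tumors, 3913 to 5544 CPM in *Ptgs*-/- tumors and 3749 to 3983 CPM in NK cell-depleted tumors. Of the 12 genes, 7 were higher and 0 lower in *Ptgs*-/- than in *Ptgs*+/+ tumors, and 2 were higher and 1 lower in NK cell-depleted than in *Ptgs*+/+ tumors. The summed C1q level per summed macrophage level was 0.424 ± 0.0315, 0.484 ± 0.0556 and 0.458 ± 0.0298 (mean ± SD), and the groups overlapped. *Apoe* and *Lyz2*, which are not restricted to macrophages, made up most of the macrophage sum. The planned ratio was that to all 12 genes. Without them the ratio was 1.06 to 1.27 in *Ptgs*+/+ tumors, 1.49 to 1.63 in *Ptgs*-/- tumors and 1.24 to 1.44 in NK cell-depleted tumors, so that *Ptgs*-/- tumors then lay above both other groups. Against single macrophage genes the direction depended on the gene. *C1qa* per *Csf1r*, the receptor for macrophage growth factors, was 3.26 to 3.54 in *Ptgs*+/+ and 3.30 to 4.56 in *Ptgs*-/- tumors, which overlapped. *C1qa* per *Adgre1*, which was itself 2.47-fold higher in *Ptgs*-/- tumors, was lower there without overlap, at 17.4 to 24.2 against 25.4 to 30.4 in *Ptgs*+/+ tumors, and was 19.4 to 25.1 in NK cell-depleted tumors. For the other chains these groups overlapped. *C1qb* per *Adgre1* was 5.59 to 8.16 in *Ptgs*-/- and 7.45 to 9.46 in *Ptgs*+/+ tumors, and *C1qc* per *Adgre1* was 5.49 to 8.41 and 7.32 to 9.33. In bulk tumors a larger number of cells of a type and more RNA per cell cannot be told apart, and the part of macrophage number in the C1q levels was not tested.

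**Figure D1:**
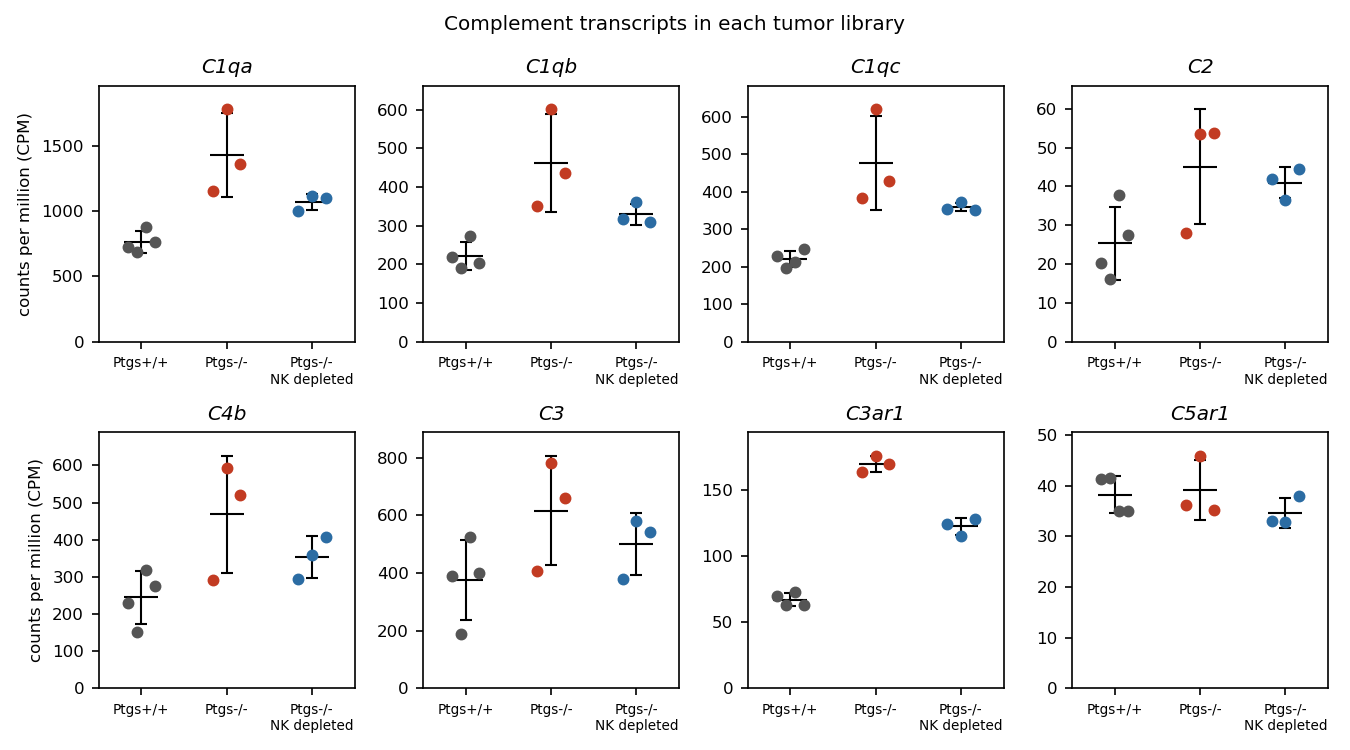
Levels of the 8 complement genes with enough counts, in CPM (vertical axis from 0), for 4 *Ptgs*+/+, 3 *Ptgs*-/- and 3 NK cell-depleted *Ptgs*-/- tumors. Points are tumors and the horizontal line with whiskers is the mean ± SD. For *C3ar1* the 3 groups are separate, at 63.0 to 73.2, 164 to 176.2 and 115.8 to 128 CPM, whereas for *C5ar1* all 3 overlap.

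*C4b* and *C2* encode the proteins that C1 proteases cleave after C1q has bound. *C4b* (ENSMUSG00000073418, chromosome 17 from 34728380 to 34743882, minus strand) was at 231, 152, 319 and 276 CPM in *Ptgs*+/+ tumors. It was at 291, 593 and 522 CPM in *Ptgs*-/- tumors and at 295, 360 and 407 CPM in NK cell-depleted tumors. *Ptgs*-/- replicate 1 lay within the range of the *Ptgs*+/+ tumors while replicates 2 and 3 were above all other tumors, so the groups overlapped. Its log2 fold change was 0.88 between *Ptgs*-/- and *Ptgs*+/+ tumors (standard error 0.26, adjusted p = 0.0287, edgeR's quasi-likelihood test). This call was lost in 6 of 20 alternative analyses, and without *Ptgs*-/- replicate 2 the log2 fold change was 0.67 (adjusted p = 0.127, edgeR's quasi-likelihood test). Leaving out *Ptgs*+/+ replicate 1 or 2 gave an adjusted p of 0.0646 each, and leaving out *Ptgs*-/- replicate 3 gave 0.0735 (same edgeR test). After NK cell depletion it was 0.50 against *Ptgs*+/+ tumors (standard error 0.26, adjusted p = 0.237, same edgeR test). The near-identical gene *C4a* was at 0.263 to 1.15 CPM in all libraries, and how reads that map to several genes were counted is not given in the sources used here, so the split between the 2 genes is uncertain.

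*C2* (ENSMUSG00000024371, chromosome 17 from 34862604 to 34898265, minus strand) had the lowest level of the 6 component genes tested among the 9. Its CPM were 20.3, 16.2, 37.7 and 27.4 in *Ptgs*+/+ tumors, 28.0, 53.4 and 53.8 in *Ptgs*-/- tumors and 41.8, 36.6 and 44.5 in NK cell-depleted tumors. The groups overlapped through *Ptgs*+/+ replicate 3 and *Ptgs*-/- replicate 1. The log2 fold change was 0.77 in *Ptgs*-/- (standard error 0.27, adjusted p = 0.0625) and 0.66 in NK cell-depleted tumors (standard error 0.27, adjusted p = 0.145), both against *Ptgs*+/+ tumors by edgeR's quasi-likelihood test. The first passed the test in 6 of 20 alternative analyses, among them DESeq2 (adjusted p = 0.0255). Of its exon bases 42.8% are shared with *Gm20547*, a transcript model on the same strand that runs on into *Cfb*, but 0 of its last 300 exon bases are.

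*Cfb*, which encodes factor B, lies just downstream (ENSMUSG00000090231, chromosome 17 from 34856374 to 34862518, minus strand). It was listed with 1 count in *Ptgs*-/- replicate 3 and with 0 counts in the other 9 libraries, so it could not be tested. Of its exon bases 79.5% are shared with *Gm20547*, among them 262 of the last 300, the stretch that 3′ reads cover, and *Gm20547* was listed at 0 counts in all libraries. Reads in a stretch shared by several genes may not have been counted for either, and the level of *Cfb* cannot be read from this table.

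*C3* (ENSMUSG00000024164, chromosome 17 from 57203970 to 57228136, minus strand) encodes the component on which all pathways converge. It was at 389, 189.8, 526.5 and 401 CPM in *Ptgs*+/+ tumors, at 409, 782 and 659 CPM in *Ptgs*-/- tumors and at 379, 582 and 543 CPM in NK cell-depleted tumors. *Ptgs*+/+ replicate 2 was the lowest and *Ptgs*-/- replicate 2 the highest, and the groups overlapped. The log2 fold change against *Ptgs*+/+ tumors was 0.65 in *Ptgs*-/- tumors (standard error 0.30, adjusted p = 0.138) and 0.38 in NK cell-depleted tumors (standard error 0.30, adjusted p = 0.459), by edgeR's quasi-likelihood test. The 95% confidence interval of the first, 0.00 to 1.31, allows a difference as large as that of any C1q chain. *C3* per *C4b*, a ratio of CPM, was 1.51 ± 0.204, 1.33 ± 0.072 and 1.41 ± 0.178 (mean ± SD) in the 3 groups, which overlapped.

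Some genes of fibroblasts, which can also make *C3* and *C4b*, were higher as well. The 10 genes of a fibroblast list summed to 7890 to 10906 CPM in *Ptgs*+/+ tumors, to 14156 to 17579 CPM in *Ptgs*-/- tumors and to 11189 to 14281 CPM in NK cell-depleted tumors. Most of the sum was collagen transcripts, those of *Col1a1*, *Col1a2* and *Col3a1*. Of these 10, 6 were higher and 0 lower in *Ptgs*-/- than in *Ptgs*+/+ tumors, and *Ptgs*-/- replicate 2 had the largest sum. The 4 that did not pass were *Dcn*, *Pdgfra*, *Thy1* and *Pdgfrb*, with log2 fold changes of 0.28, 0.38, 0.05 and -0.46. The part of fibroblasts in the complement levels was not tested.

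The receptors behaved differently from each other. *C3ar1* (ENSMUSG00000040552, chromosome 6 from 122847138 to 122856161, minus strand) encodes the receptor for C3a. It was at 69.9, 63.1, 73.2 and 63.0 CPM in *Ptgs*+/+ tumors, at 164, 176.2 and 170.4 CPM in *Ptgs*-/- tumors and at 124, 115.8 and 128 CPM in NK cell-depleted tumors. The 3 groups were far apart relative to the spread within each. The level in *Ptgs*-/- tumors was 2.43-fold that in *Ptgs*+/+ tumors, or 1.28 in log2 units (standard error 0.09, adjusted p = 1.47e-05, edgeR's quasi-likelihood test), and it passed the test in all 20 alternative analyses. In NK cell-depleted tumors it was 1.78-fold that in *Ptgs*+/+ tumors, or 0.83 in log2 units (standard error 0.09, adjusted p = 0.000167, same edgeR test), again past the test in all 20.

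With against without NK cells, *C3ar1* was 1.36-fold higher in *Ptgs*-/- tumors, or 0.44 in log2 units (standard error 0.10, adjusted p = 0.0476, edgeR's quasi-likelihood test). This size varied little over 20 alternative analyses, from 0.41 to 0.49, but the adjusted p ran from 0.000456 to 0.229 and was above 0.05 in 14 of them. Among these were 8 of 10 fits in which a single library was omitted, the exceptions being those without *Ptgs*+/+ replicate 3 or 4.

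*C5ar1* (ENSMUSG00000049130, chromosome 7 from 16246743 to 16259540, minus strand) encodes the receptor for C5a. Its CPM were 41.3, 41.4, 35.1 and 35.1 in *Ptgs*+/+ tumors, 36.2, 45.9 and 35.3 in *Ptgs*-/- tumors and 33.0, 32.8 and 37.9 in NK cell-depleted tumors. All groups overlapped. The log2 fold change of *Ptgs*-/- against *Ptgs*+/+ tumors was -0.02 with a 95% confidence interval of -0.31 to 0.26 (adjusted p = 0.914, edgeR's quasi-likelihood test), an interval that lies below the fold change of *C3ar1*, and its sign changed with the scaling and in 8 of 20 alternative analyses in all. *C3ar1* per *C5ar1*, a ratio of CPM, was 1.77 ± 0.236 for *Ptgs*+/+, 4.40 ± 0.510 for *Ptgs*-/- and 3.56 ± 0.202 for NK cell-depleted tumors (mean ± SD over 4, 3 and 3 tumors). The lowest ratio of a *Ptgs*-/- tumor, 3.84, exceeded the highest of an NK cell-depleted tumor, 3.78, and that of a *Ptgs*+/+ tumor, 2.09.

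**Figure D2:**
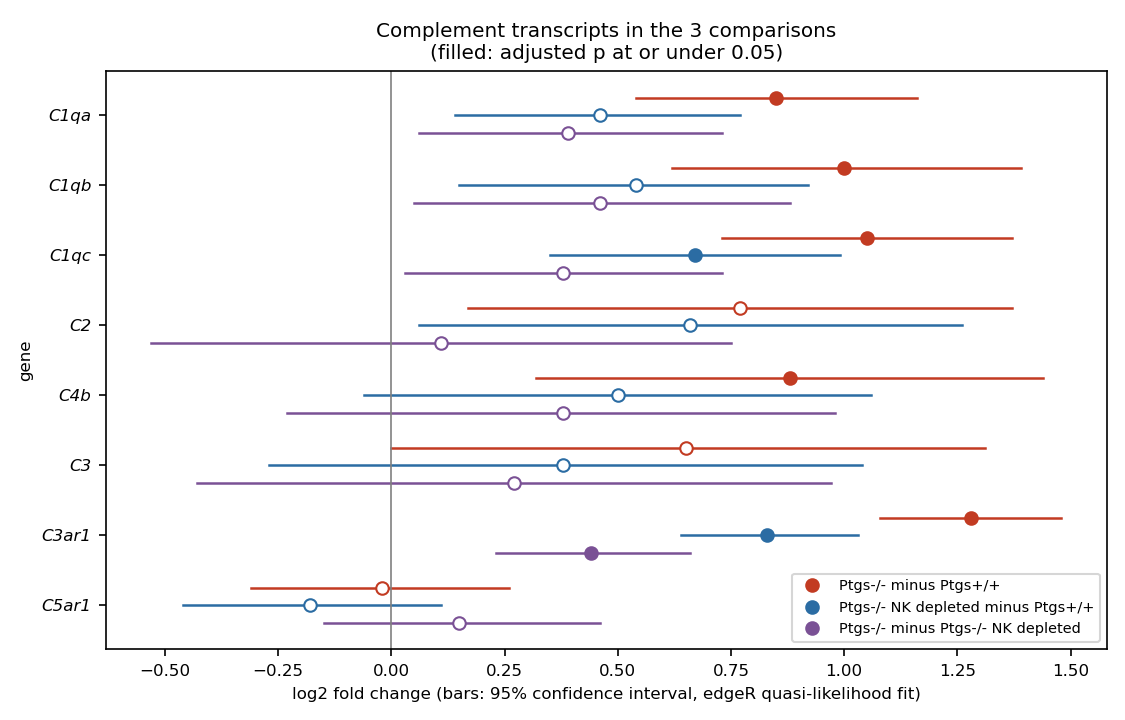
Log2 fold change of the 8 complement genes (horizontal axis) in the 3 comparisons, with 95% confidence intervals from the edgeR fit. Filled points passed the test. *C3ar1* is filled in all 3 comparisons, at 1.28, 0.83 and 0.44, and *C5ar1* lies near 0 in each.

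Markers of cells known to carry these receptors differed in direction. *C5ar1* is a known surface protein of neutrophils as well as of macrophages, and 12 neutrophil genes summed to 420.7 to 656.7 CPM in *Ptgs*+/+, 86.1 to 110.7 CPM in *Ptgs*-/- and 148 to 196 CPM in NK cell-depleted tumors. Of the 9 neutrophil genes tested, 7 were lower in *Ptgs*-/- than in *Ptgs*+/+ tumors and 0 higher. *Mmp9* alone was at 164 to 348 CPM in *Ptgs*+/+ tumors and at 29.8 to 37.7 CPM in *Ptgs*-/- tumors. *Ly6g* was under 0.39 CPM in all libraries. *Csf3r* did not pass and lay the other way, at 2.02 to 4.44 CPM in *Ptgs*+/+ and 5.17 to 5.745 CPM in *Ptgs*-/- tumors. A list of 8 monocyte genes summed to 1177 to 1569 CPM in *Ptgs*+/+, 2766 to 3215 CPM in *Ptgs*-/- and 2118 to 2451 CPM in NK cell-depleted tumors. Of these genes, 5 were higher and 1 lower in *Ptgs*-/- than in *Ptgs*+/+ tumors. Much of the sum was *Fn1*, at 530 to 813, 1202 to 1570 and 999 to 1225 CPM in the same order. The part of neutrophils and monocytes in the receptor levels was not tested.

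In CPM per tumor, *C1qa*, *C1qb*, *C1qc* and *C3ar1* were the genes whose *Ptgs*-/- and *Ptgs*+/+ tumors did not overlap, 4 of 8, where 18.1% of all genes tested were so separated in the higher direction. The same 4 were separated between NK cell-depleted and *Ptgs*+/+ tumors, where 15.1% of all genes were. Between *Ptgs*-/- tumors with and without NK cells, *C1qa*, *C1qc* and *C3ar1* were separated, where 10.4% of all genes were. None was separated in the lower direction in any comparison.

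The title codes were examined for the 5 genes that were higher in *Ptgs*-/- tumors. Among the other 8 libraries, the log2 fold change between *Ptgs*-/- and *Ptgs*+/+ tumors was 0.92 for *C1qa*, 1.04 for *C1qb*, 1.22 for *C1qc* and 1.29 for *C3ar1*, and all 4 passed edgeR's quasi-likelihood test (adjusted p = 0.0115, 0.0152, 0.00418 and 0.00063). *C4b* did not pass there, at 0.90 (adjusted p = 0.0939, same edgeR test). With 1 *Ptgs*+/+ and 1 *Ptgs*-/- tumor, the second code was too small for a value of its own. *C3ar1* with against without NK cells had a log2 fold change of 0.48 among the 8 libraries (adjusted p = 0.122, same edgeR test).

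Most of the 8 genes varied together over the 10 tumors. As Pearson correlations of log2(CPM + 1), given as descriptions since tumors share groups, the C1q chains had values of 0.94 to 0.99 with each other and 0.91 to 0.93 with *C3ar1*. *C2*, *C3* and *C4b* had values of 0.87 to 0.96 with each other and of 0.72 to 0.90 with the C1q chains, and *C5ar1* had values of -0.20 to 0.14 with the other 7. After each group's mean was subtracted, *C4b* still had values of 0.95 with *C3*, 0.91 with *C2* and 0.85 with *C1qa*, whereas *C3ar1* had 0.18 to 0.57 with the C1q chains.

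The genes outside complement that varied most like 7 of them were taken over the same 10 tumors among 14477 genes. Those nearest to *C1qa* were *Ctsh*, which encodes cathepsin H (r = 0.991), *Pld4* (0.989) and *Laptm5*, a lysosomal membrane protein of blood cells (0.989). *Pld4* (0.992) and *Ctsh* (0.991) were also nearest to *C1qb*, with *Ncf1*, a subunit of the phagocyte oxidase, at 0.990. *C1qc* had *Pik3cd* (0.986), *P2rx4* (0.986) and *Rap1b* (0.985). *C3ar1* was most like *Ctss*, which encodes cathepsin S (0.993), *Adgre1*, the macrophage antigen F4/80 (0.991), and *Ly86* (0.989). For *C4b* they were *Pla2r1* (0.984), *Rab3d* (0.979) and *Agtrap* (0.974), for *C3* *Ccr9* (0.968), *Rab3d* (0.948) and *Cul9* (0.946), and for *C2* *Plxdc2* (0.967), *Smarca2* (0.967) and *Eif4e3* (0.964). Of these, *Ccr9* and *Pla2r1* were at low mean levels of 2.828 and 4.205 CPM. All were picked as the highest of many genes over few tumors, so the values are descriptions only.

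The remaining complement genes were followed as a list of 45, of which 25 could be tested. Of the other 20, 7 had 0 counts in all libraries, and 12, these included, had at most 3 counts in each library, about the detection floor of 0.234 to 0.368 CPM, which covers counting error only. Of the 25, 4 were higher and 1 lower in *Ptgs*-/- than in *Ptgs*+/+ tumors, 1 was higher and 1 lower in NK cell-depleted than in *Ptgs*+/+ tumors, and 0 passed edgeR's test between *Ptgs*-/- tumors with and without NK cells, where 4 were higher and 1 lower at an unadjusted p under 0.05 and DESeq2 also called 0. Over all genes tested, 12.1% were higher and 11% lower in the first of these comparisons and 6.63% and 5.87% in the second, so that these counts are few and not far from, or under, the shares over all genes. Their median log2 fold changes were 0.31, 0.03 and 0.14 in that order. *Mbl1*, *Mbl2* and *C8b*, components known to be made by the liver, had 0 counts throughout.

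Receptors among them included the subunits of complement receptors 3 and 4, integrins that bind a fragment of C3. *Itgb2*, their shared beta chain, was at 39.2, 30.9, 23.7 and 33.2 CPM in *Ptgs*+/+ tumors, 66.7, 84.2 and 68.8 CPM in *Ptgs*-/- tumors and 60.9, 49.5 and 53.7 CPM in NK cell-depleted tumors. The 3 groups did not overlap, and the gene was higher than in *Ptgs*+/+ tumors by a log2 fold change of 1.15 in *Ptgs*-/- tumors (standard error 0.16, adjusted p = 0.000615) and of 0.75 in NK cell-depleted tumors (standard error 0.16, adjusted p = 0.0101), both by edgeR's quasi-likelihood test. *Itgam*, the alpha chain CD11b, was at 40.0 to 55.5 CPM in *Ptgs*+/+ and 79.3 to 109.9 CPM in *Ptgs*-/- tumors, without overlap (log2 fold change 0.92, standard error 0.15, adjusted p = 0.00172, edgeR's quasi-likelihood test). *Itgax*, the alpha chain CD11c, was at 37.6 to 52.9 CPM and 46.5 to 117 CPM (log2 fold change 0.82, standard error 0.27, adjusted p = 0.0448, same edgeR test), and its groups overlapped. In all, 3 of the 8 receptor genes passed this test, all upwards, and 5 did not, among them *C5ar2*, the second receptor for C5a, at 0.535 to 1.97 CPM in all libraries.

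Among the regulators 1 gene was lower and 1 higher. *Clu*, which encodes clusterin, an inhibitor of the terminal complex with many other roles, was at 540, 788, 613 and 404.5 CPM in *Ptgs*+/+ tumors, 50.8, 39.8 and 59.5 CPM in *Ptgs*-/- tumors and 71.4, 82.4 and 54.4 CPM in NK cell-depleted tumors. Every *Ptgs*-/- tumor of either kind was far below every *Ptgs*+/+ tumor. It fell by 3.62 on the log2 scale in *Ptgs*-/- tumors (standard error 0.26, adjusted p = 1.47e-05) and by 3.11 in NK cell-depleted tumors (standard error 0.25, adjusted p = 5.03e-05), both against *Ptgs*+/+ tumors by edgeR's quasi-likelihood test. *Cd46*, a cofactor for the cleavage of C3b, was higher in *Ptgs*-/- tumors, at 2.37 to 3.80 CPM against 0.619 to 1.87 CPM (log2 fold change 1.35, standard error 0.37, adjusted p = 0.0216, same edgeR test). All of its last 300 exon bases overlap *A330023F24Rik* on the opposite strand, and without strand in the counting the reads of both cannot be told apart. The other 7 regulators tested did not pass in *Ptgs*-/- against *Ptgs*+/+ tumors, among them *Serping1*, the inhibitor of C1 proteases, at 159.4 to 288 CPM in *Ptgs*+/+ and 268 to 422 CPM in *Ptgs*-/- tumors.

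Of 15 genes for proteases and recognition molecules, 6 were tested and 0 passed edgeR's test in any comparison, while *C1ra* and *C1s1* alone had an unadjusted p under 0.05, in *Ptgs*-/- against *Ptgs*+/+ tumors. *C1ra* and *C1s1*, which encode the proteases bound to C1q, had log2 fold changes of 0.60 (adjusted p = 0.0844) and 0.76 (adjusted p = 0.0607) in *Ptgs*-/- against *Ptgs*+/+ tumors by edgeR's quasi-likelihood test. Their near-identical copies *C1rb* and *C1s2* were at or under 0.642 CPM, so the split of reads is uncertain. *Cfd*, which encodes factor D, the protease that activates factor B, ranged from 211 to 3843 CPM over the 10 tumors and its groups overlapped widely. *Adipoq*, a gene of fat cells, ranged from 28.1 to 406 CPM, and both were lowest in *Ptgs*-/- replicate 1 and highest in *Ptgs*+/+ replicate 3. The 8 genes of an adipocyte list, *Adipoq* among them, also had their lowest sum in *Ptgs*-/- replicate 1 (223 CPM). Their sum was highest in *Ptgs*+/+ replicate 4 (4934 CPM), however, and was 1681 CPM in *Ptgs*+/+ replicate 3. Of the 7 terminal genes 2 were tested, *Hc*, which encodes C5, and *C6*, and neither passed in any comparison. *Hc* was at 0.613 to 8.06 CPM and *C6* at 1.65 to 11.4 CPM over all libraries.

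**Figure D3:**
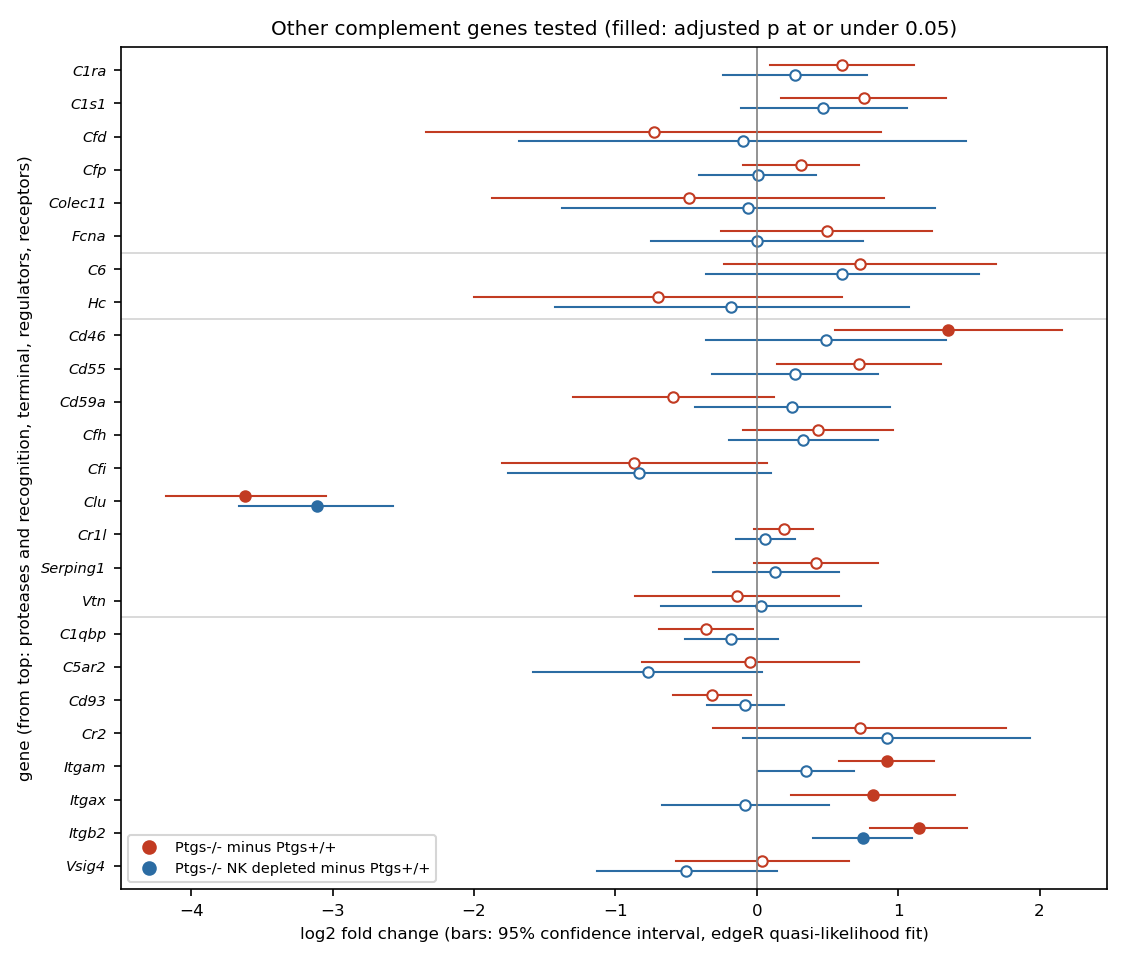
Log2 fold change (horizontal axis, with 95% confidence intervals from the edgeR fit) of the 25 other complement genes tested, for *Ptgs*-/- and for NK cell-depleted *Ptgs*-/- tumors against *Ptgs*+/+ tumors. Filled points passed the test, and *Clu* stands apart at -3.62 and -3.11.

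**Figure D4:**
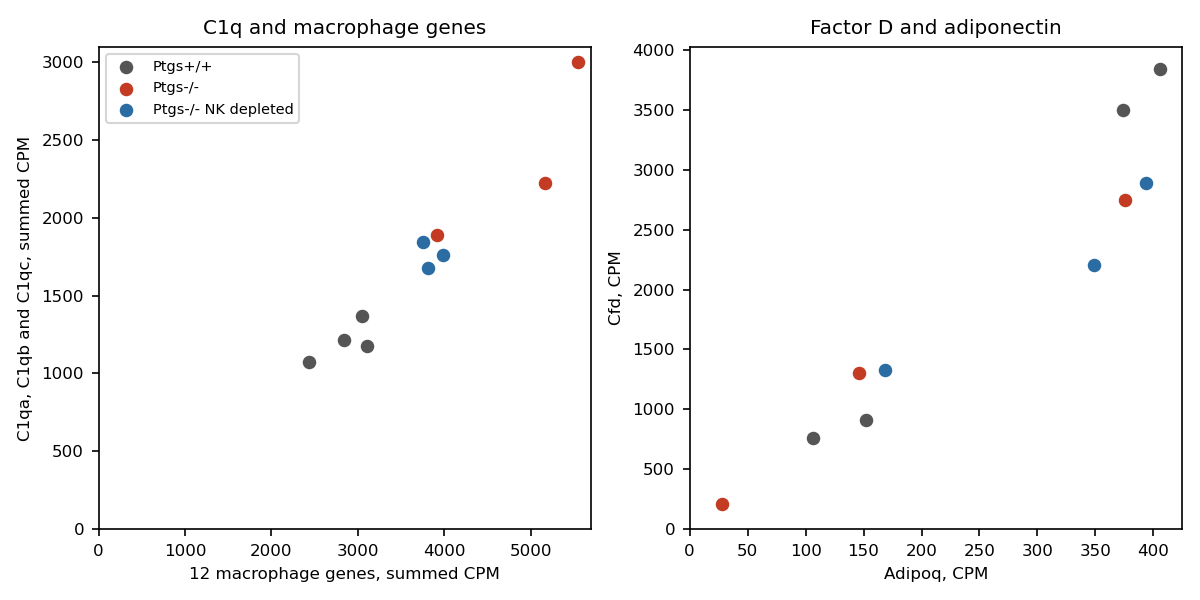
Each point is a tumor. On the left the summed CPM of *C1qa*, *C1qb* and *C1qc* is plotted against that of 12 macrophage genes, and the *Ptgs*+/+ tumors, at 2436 to 3111 CPM of macrophage genes, lie lowest on both axes. On the right *Cfd* is plotted against *Adipoq*, in CPM, and *Cfd* was 6.01 to 9.47 times *Adipoq* in all 10 tumors.

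The response to interferon-gamma, a known inducer of several complement genes, was higher in *Ptgs*-/- tumors in the same libraries. A list of 20 genes of this response summed to 480 to 589 CPM in *Ptgs*+/+ tumors, 1035 to 1549 CPM in *Ptgs*-/- tumors and 717 to 927 CPM in NK cell-depleted tumors. Of the 19 tested, 18 were higher in *Ptgs*-/- and 7 in NK cell-depleted than in *Ptgs*+/+ tumors, and 3 were higher with than without NK cells. *Ptgs*-/- replicate 2 had the highest sum. That tumor also had the highest level of *C1qa*, *C1qb*, *C1qc*, *C4b*, *C3*, *C3ar1* and *C5ar1*, but not of *C2*. The sums of the macrophage, monocyte and fibroblast lists were highest in it too, at 5544, 3215 and 17579 CPM, so its rank is not particular to this response. The part of this response in the complement levels was not tested.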

How the data were processed

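RNA of 10 bulk tumors was sequenced from transcript 3′ ends (Lexogen QuantSeq). Reads were trimmed by the authors, mapped with STAR (GRCm38) and assigned to genes by featureCounts. The deposited table holds raw counts, not normalized, in a column for each tumor. Whether strand, several matches or molecular identifiers were considered is not given in the sources used here. Samples were grouped by the submitters' titles and genotype labels. Of 45706 identifiers, 45143 were named from GENCODE M21 on the same build, which gave the coordinates.

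In R 4.3.3, edgeR 4.0.16 (filterByExpr, TMM, quasi-likelihood test, 1 model of 3 groups and 10 libraries) tested 14550 genes, and DESeq2 1.42.0 was an alternative. No pair of replicates was a duplicate (chi-square per degree of freedom 8.06 to 33.2). The labels do not say whether each tumor came from a separate mouse, so that p-values measure the spread between these samples. The genes named are the 9 members, other complement genes past the test in any comparison, the 3 most correlated genes per member (those of *C5ar1* are not reported here) and checks of the labels. Other complement genes that did not pass were named after their values were seen. Members and lists were chosen with earlier results of these data known. Motifs were searched in RefSeq promoter windows. CPM used library totals, and correlations used log2(CPM + 1).

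Alternatives were DESeq2, library size alone, no filter, at least 10 counts in every library, a likelihood ratio test, only the groups compared, the title code as a covariate, first-code libraries alone, a replicate block, each library left out and, chosen after seeing the data, counts without skeletal muscle genes.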

Additional observations from a re-analysis of the deposited data

How the results depend on the processing

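Of 480 values of the 8 genes under 20 alternatives in 3 comparisons, 425 kept their direction and side of the threshold, 25 newly passed, 21 no longer passed and 9 changed sign. In *Ptgs*-/- against *Ptgs*+/+ tumors, *C5ar1* turned from -0.02 to 0.03 with library size alone, 0.02 where every library had to hold at least 10 counts and 0.04 in libraries of the first code, and ran from -0.15 to 0.09 in fits without 1 library. In *Ptgs*-/- against NK cell-depleted tumors, *C2* ran from -0.02 (without *Ptgs*-/- replicate 2) to 0.35 in such fits. None of these passed the test. In fits without 1 library, the number of genes higher ran from 4 to 7 in *Ptgs*-/- against *Ptgs*+/+ tumors, from 1 (without NK cell-depleted replicate 2) to 5 (without *Ptgs*+/+ replicate 3) in NK cell-depleted against *Ptgs*+/+ tumors, and from 0 to 1 with against without NK cells. In NK cell-depleted against *Ptgs*+/+ tumors the number was 4 with DESeq2, the likelihood ratio test or only the groups compared, and 5 with no filter. With against without NK cells it was 0 with no filter, at least 10 counts in every library, only the groups compared, the code as a term and libraries of the first code.

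Between samples of different groups with the same number in their titles, correlations of deviations from the group means ran from -0.30 to 0.39. Some of these samples carried different title codes, and so few samples cannot show whether the numbers were pairs. With the number as a replicate block, *C3ar1* with against without NK cells had an adjusted p of 0.0748 and 0 genes were higher there, while *C2* passed in *Ptgs*-/- against *Ptgs*+/+ tumors at 0.76 (adjusted p = 0.0419, edgeR's quasi-likelihood test), so that 6 were higher. No other call among the 8 genes changed.

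Of the other complement genes, the number higher in *Ptgs*-/- than in *Ptgs*+/+ tumors was 7 with DESeq2 or no filter and 2 in libraries of the first code, where 2 were lower. It was 2 to 6, with 1 to 2 lower, without 1 library (2 without *Ptgs*-/- replicate 2). With against without NK cells 1 was higher with no filter, and 0 to 1 without 1 library. In NK cell-depleted against *Ptgs*+/+ tumors 0 to 1 were higher without 1 library. Over all genes, 209 passed with against without NK cells, against 383 with DESeq2, 408 with no filter, 403 with the likelihood ratio test, 42 with at least 10 counts required, 93 in libraries of the first code and 106 to 411 without 1 library. In *Ptgs*-/- against *Ptgs*+/+ tumors 3360 passed, against 2222 in libraries of the first code and 2062 to 3881 without 1 library, and in NK cell-depleted against *Ptgs*+/+ tumors 1818 passed, against 909 to 2116 without 1 library. The cause of these changes was not tested. The ratio of C1q to macrophage genes without *Apoe* and *Lyz2* averaged 1.14, 1.56 and 1.32 in the 3 groups. Between *Ptgs*-/- and *Ptgs*+/+ tumors the standard error (log2) ran from 0.09 for *C3ar1* to 0.30 for *C3*, so that the smallest difference that could pass depended on the gene.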
